A study of Homo sapiens with 2 samples.

Results

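The microRNAs (miRNAs) described here are human mature miRNAs whose number is 3000 or above, names given late in the history of miRNA annotation. They were chosen by name and by a measured value: a raw count of at least 10 in at least 1 of the 2 libraries, which kept 204 of the 803 listed names with such a number. Those 204 members stand among 690 miRNAs that met the same count minimum, and the other 486, among them the let-7 names, are called lower-numbered. Because the counts that chose the members are the counts compared between the libraries, every ratio below is a description, with no test.

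The libraries hold small RNA from cells sorted by flow cytometry with CD24 and CD44, surface markers used to enrich breast cancer stem cells. One came from MDA-MB-468, a breast cancer line labelled ER-, PR- and HER2- and cultured in DMEM, and the other from BT474, labelled ER+ and cultured in RPMI-1640. Each line gave 1 library, so no difference has a replicate check, and line, sort and medium cannot be told apart. Annotated miRNAs received 11448022 counts in MDA-MB-468 against 5133057 in BT474, and all 9 listed names of the epithelial miR-200 family, by which the labelled tissue was checked, were present in both libraries at a summed 73900 and 59040 counts-per-million (CPM). Stromal marker miRNAs summed to 369 and 166 CPM, blood markers to 47.5 and 64.3, neuron markers to 210 and 401, muscle markers to 1.31 and 4.87, and no liver marker was listed.

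A miRNA is cut from a hairpin in a longer transcript, in most cases by the nuclease Drosha in the nucleus and then by Dicer in the cytoplasm, and an Argonaute protein keeps one arm of the hairpin, 5p or 3p. The bases near its 5′ end, the seed, pair with target mRNAs. Numbers were handed out in the order of discovery, so low numbers hold the abundant and widely conserved miRNAs, and many high numbers were found by deep sequencing. Some late names are mirtrons, hairpins with an end that the spliceosome cuts instead of Drosha, and some lie in other small RNAs such as tRNA or snoRNA.

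Mature sequences in RefSeq (GRCh38.p14) were matched by name for 171 of the 204 members. Each is printed 5′ to 3′ in lower case, with the seed, bases 2 to 8, in capitals. The first set holds some, but not all, of the abundant members that are discussed by name.
miR-3615: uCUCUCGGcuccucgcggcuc
miR-7706: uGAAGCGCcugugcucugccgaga
miR-4443: uUGGAGGCguggguuuu
miR-7974: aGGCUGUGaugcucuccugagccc
miR-7704: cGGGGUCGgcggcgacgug
miR-4791: uGGAUAUGaugacugaaa

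The second set holds members whose mature 3′ end lies at the end of an intron, a feature common among the members and rare among the lower-numbered miRNAs. The closing AG, the last bases of nearly every human intron, is also in capitals.
miR-6510-3p: cACCGACUcugucuccugcAG
miR-6820-3p: uGUGACUUcuccccugccacAG
miR-6806-3p: uGAAGCUCugacauuccugcAG
miR-6795-3p: aCCCCUCGuuucuucccccAG
miR-6775-3p: aGGCCCUGuccucugccccAG
miR-4728-3p: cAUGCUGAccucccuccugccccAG
miR-6833-3p: uUUCUCUCuccacuuccucAG

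The third set holds members that end in the bases CACCA, the letters at the 3′ end of some tRNAs, where CCA is added after transcription.
miR-4454: gGAUCCGAgucacggcacca
miR-7975: aUCCUAGUcacggcacca
miR-7977: uUCCCAGCcaacgcacca

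The fourth set holds members high in BT474 and low or not listed in MDA-MB-468.
miR-5585-3p: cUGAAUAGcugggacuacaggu
miR-4713-5p: uUCUCCCAcuaccaggcuccca
miR-4760-5p: uUUAGAUUgaacaugaaguuag
miR-4485-3p: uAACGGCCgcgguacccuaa
miR-3173-5p: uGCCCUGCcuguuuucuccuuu
miR-4497: cUCCGGGAcggcugggc
miR-4284: gGGCUCACaucaccccau

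The members were scarce in both lines. They held 28186 counts in MDA-MB-468, 0.246% of the library (exact Clopper-Pearson 95% interval 0.243 to 0.249), and 11725 counts in BT474, 0.228% (0.224 to 0.233). No molecular identifiers marked the amplified reads, and these intervals, like all below, cover counting error only. The most abundant member stood at rank 99 of all miRNAs in each library, miR-3615 with 372 CPM in MDA-MB-468 and miR-4443 with 306 CPM in BT474. The larger of a member's 2 counts had a median of 26.5, against 275.5 for the lower-numbered miRNAs. Of the members, 71.1% stayed below 50 counts in both libraries, against 26.5% of the lower-numbered, while 7 members (3.43%) and 171 lower-numbered miRNAs (35.2%) reached 1000 counts. Only 25.4% of the names numbered 3000 and above met the minimum of 10 counts, against 59.3% of the lower-numbered names.

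**Figure D1:**
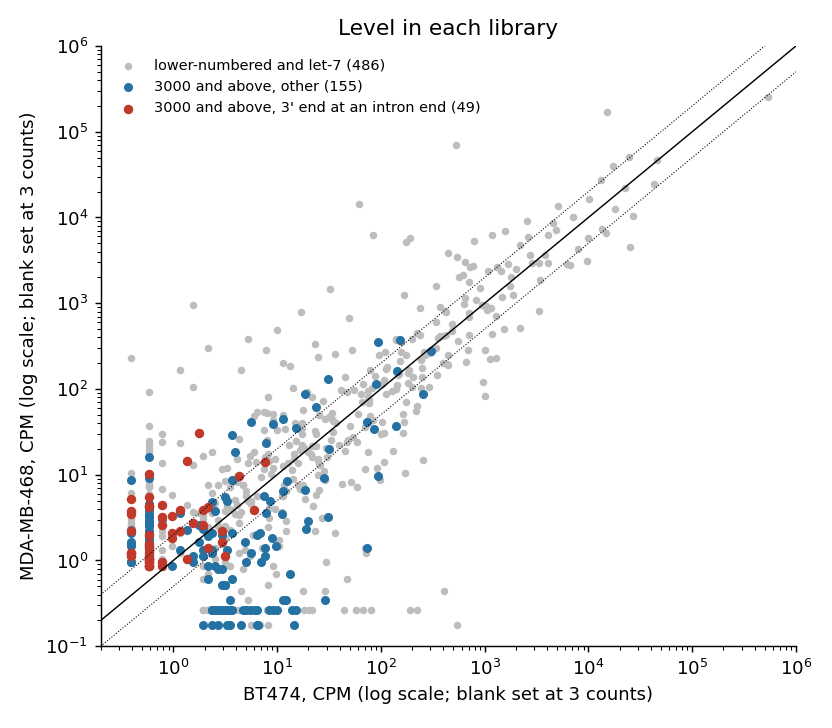
Level of each miRNA in BT474 (x axis) and MDA-MB-468 (y axis), both in CPM on log scales, with a value not listed set at 3 counts; grey points are the 486 lower-numbered miRNAs, blue points 155 members and red points the 49 members whose mature 3′ end lies at an intron end. The solid line marks equal CPM and the dotted lines 2-fold; the members crowd the low corner, and none passes 372 CPM.

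A few members carried most of these counts. In MDA-MB-468 the 10 most abundant took 68.7% of the members' counts and 5 of them at least 50%, and in BT474 the 10 most abundant took 62.8%. miR-3615, whose hairpin overlaps an exon of SLC9A3R1, the gene of a scaffold protein of epithelial cells, had 4256 counts in MDA-MB-468 against 783 in BT474, which are 372 and 152.5 CPM. The log2 ratio of MDA-MB-468 over BT474 was 1.29 (exact conditional binomial 95% interval 1.18 to 1.40). miR-7706, which overlaps an exon of AKAP13, had 3987 and 480 counts, 348 and 93.5 CPM, with a log2 ratio of 1.90 (1.76 to 2.04). Both were more than 2-fold higher in MDA-MB-468.

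Several of the abundant members differed little between the lines. miR-4443 had 3198 and 1573 counts, 279 CPM in MDA-MB-468 against 306 in BT474, a log2 ratio of -0.13 (-0.22 to -0.05). miR-7977 had 1870 and 742 counts, 163 and 145 CPM, a log2 ratio of 0.18 (0.05 to 0.30). For miR-5100 the counts were 1317 and 458, the levels 115 and 89.2 CPM and the log2 ratio 0.37 (0.21 to 0.52). None of these ratios reached 2-fold in either direction.

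The remaining abundant members split between the lines. Higher in MDA-MB-468 were miR-4286 with 1516 against 159 counts (log2 2.10, 1.86 to 2.34) and miR-4664-3p with 997 against 96 (2.22, 1.92 to 2.54). The same direction was found for miR-4521 with 700 against 123 counts (1.35, 1.07 to 1.64) and for miR-3200-3p, in an intron of OSBP2, with 513 against 58 (1.99, 1.59 to 2.41). Higher in BT474 were miR-7974 with 1005 counts in MDA-MB-468 against 1314 in BT474 (log2 -1.54, -1.66 to -1.42) and miR-7704, which overlaps an exon of the homeobox gene HOXD1, with 428 and 721 (-1.91, -2.09 to -1.74). In CPM, miR-7974 stood at 87.8 in MDA-MB-468 but 256 in BT474.

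The largest gaps among the abundant members, those of miR-4485-3p and miR-4791, were on the side of BT474. Both were among the 10 most abundant in BT474 only. miR-4791 had 112 counts in MDA-MB-468 against 481 in BT474, 9.78 and 93.7 CPM (log2 -3.26, -3.57 to -2.96). miR-4485-3p had 16 and 377 counts, 1.40 and 73.5 CPM (log2 -5.72, -6.54 to -4.997). A smaller gap was that of miR-3613-5p, from the noncoding host DLEU2, 2.49-fold higher in BT474 with 394 and 440 counts. Of the 14 members that were among the 10 most abundant in either library, the ratio thus ranged from a log2 of -5.72 to 2.22.

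**Figure D2:**
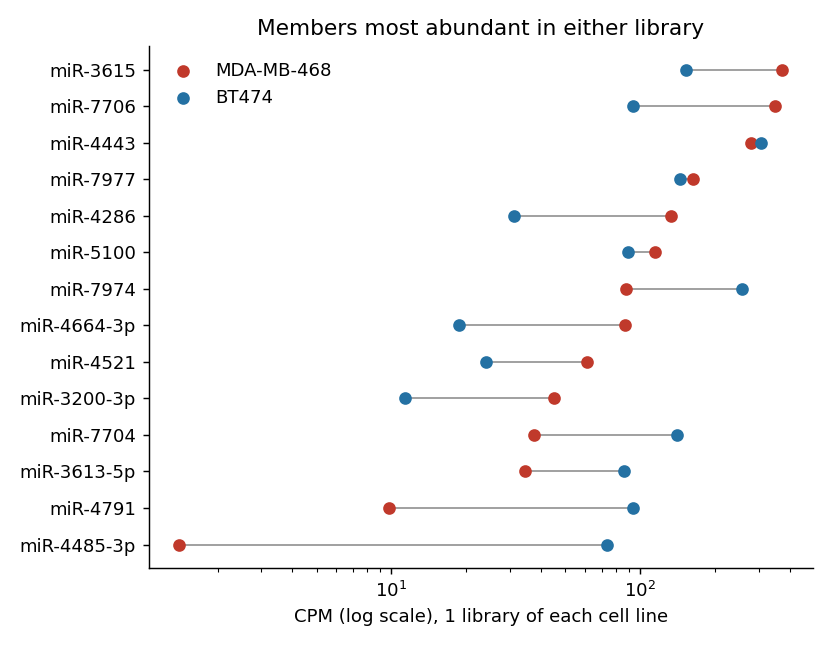
CPM on a log scale (x axis) of the members that were among the 10 most abundant in either library, 1 point per library, red for MDA-MB-468 and blue for BT474, joined by a line. miR-4443, miR-7977 and miR-5100 have points close together, while miR-4485-3p spans 1.40 to 73.5 CPM.

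Across all members, the calls were near those of the whole table. A miRNA was called higher in one line where its CPM ratio reached 2-fold and the interval excluded 1, with a value not listed set at 3 counts in the ratio. Of the 204 members, 70 (34.3%) were called higher in MDA-MB-468, beside 32.9% of all 690 miRNAs, and 66 (32.4%) were called higher in BT474, beside 28.3% of all. Among the lower-numbered miRNAs the shares were 32.3% and 26.5%. The members' median log2 ratio was 0.58, against 0.22 for the lower-numbered and 0.30 for all. That median changed sign with the minimum: 10 counts in the deeper MDA-MB-468 library are 0.874 CPM and 10 in BT474 are 1.95 CPM. When a member needed the equivalent of 10 counts at the depth of BT474, 155 members were left, with a median of -0.62, 55 called higher in MDA-MB-468, while 66 were higher in BT474.

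The members met the minimum in different libraries, and this bears directly on their ratios. Of the 93 members with 10 counts or more in MDA-MB-468 alone, 54 were called higher there and 0 in BT474, and all 41 members with 10 counts in BT474 alone were called higher in BT474. The 70 members with at least 10 counts in both libraries comprised 16 called higher in MDA-MB-468, 25 called higher in BT474 and 29 neither, with a median log2 ratio of -0.64. These are shares of 22.9% and 35.7%, beside 26.4% and 23.8% of the 349 lower-numbered miRNAs under the same condition, whose median was 0.04. Just inside the minimum, at 10 counts, stood miR-3187-5p (10 counts in MDA-MB-468 against 5 in BT474), miR-6803-3p (10 and 4), miR-3653-3p (2 and 10), and miR-3690 and miR-6799-3p (10 in MDA-MB-468, not listed in BT474). Just outside, at 9 counts, stood miR-3664-3p (9 in each library), miR-3190-3p (4 and 9), and miR-3616-5p, miR-3927-3p and miR-4429 (9 in MDA-MB-468, not listed in BT474).

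Restriction to one line was assessed by the values that the authors did not list, which are blank in their table, the smallest listed count being 2. In BT474, 46 members (22.5%) were blank, beside 13.0% of all miRNAs and 9.05% of the lower-numbered. In MDA-MB-468, 19 members (9.31%) were blank, beside 6.67% of all and 5.56% of the lower-numbered. The gap between members and lower-numbered miRNAs was small once miRNAs of like abundance were compared. With a larger count of 10 to 19, 32.5% of 77 members and 31.4% of 51 lower-numbered miRNAs were blank in BT474. With 20 to 49 counts the shares were 17 of 68 and 23.1% of 78, with 50 to 99 counts 12.0% of 25 and 11.1% of 45, and with 100 or more but under 1000 counts 3.70% of 27 and 2.84% of 141. Blanks in MDA-MB-468 showed no constant order: the members' share was lower at 10 to 19 counts (11.7% against 17.6%) and higher at 50 to 99 (12.0% against 2.22%, the latter 1 miRNA of 45).

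**Figure D3:**
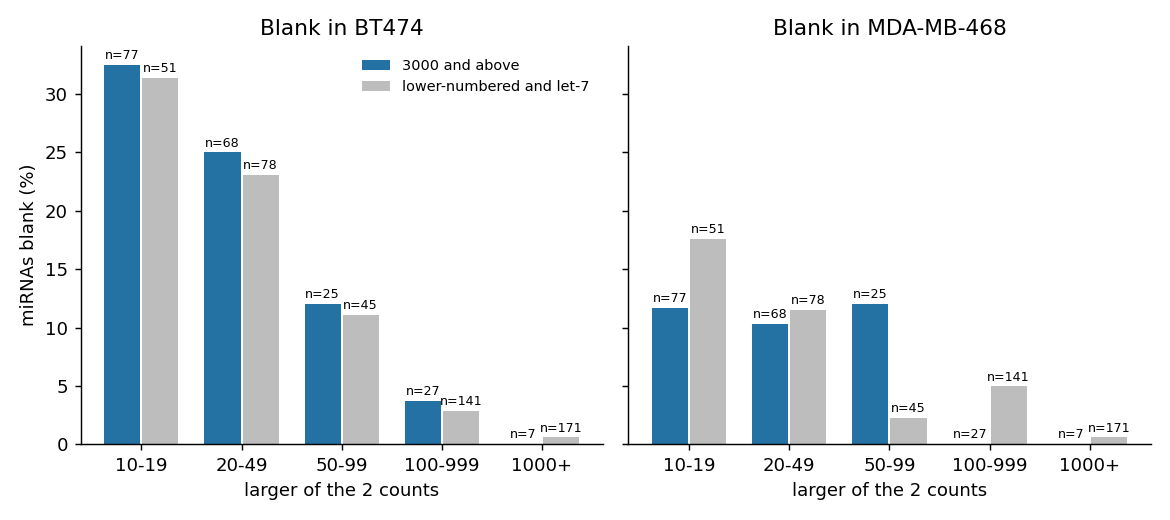
Share of miRNAs (y axis, %) that were blank in BT474 (left) and in MDA-MB-468 (right), by the larger of the 2 counts (x axis), for members (blue) and lower-numbered miRNAs (grey); n is the number of miRNAs in a bar. In BT474 the paired bars lie within 2 points of each other in every band, and the members' share falls from 32.5% at 10 to 19 counts to 0 of 7 members at 1000 counts or more.

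Members listed in MDA-MB-468 with at least 20 counts and blank in BT474 numbered 21. The most abundant was miR-7156-5p, in an intron of the sialyltransferase gene ST6GALNAC5 (hairpin on chromosome 1, GENCODE 29, GRCh38), with 105 counts, at least 15.7-fold higher with BT474 set at 3 counts per library; with a blank taken as 0 the interval of its log2 ratio started at 3.65, below the 3.97 at the floor. It was followed by miR-3681-5p with 52 counts (at least 7.77-fold), miR-3125, in an intron of the pseudokinase gene TRIB2, with 50 (at least 7.47-fold), and miR-6775-3p, in an intron of the amino acid transporter gene SLC7A5, with 50. The other 17 had 20 to 48 counts, among them both arms of mir-4482, with 40 counts for 3p and 20 for 5p. These members are absent from the BT474 list at a depth where 3 counts are 0.584 CPM.

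In the opposite direction, 10 members had at least 20 counts in BT474 and were blank in MDA-MB-468. miR-4713-5p had 78 counts, at least 58.0-fold higher in BT474 with MDA-MB-468 set at 3 counts, which are 0.262 CPM there. miR-4760-5p, in an intron of the neural adhesion gene DSCAM, had 71 counts (at least 52.8-fold), and miR-6744-5p, in an intron of the mucin gene MUC5B, had 51 (at least 37.9-fold). miR-4478 had 47 counts, miR-3614-5p 43, miR-4662a-5p 33, miR-4758-3p 31, miR-4654 28, miR-4442 26 and miR-4301, in an intron of the dopamine receptor gene DRD2, 24. For the same count these bounds are larger than those above, because the floor is lower in CPM and a count is worth more CPM in the shallower library.

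Among the 59 members with at least 50 counts in 1 library, the highest ratios belonged to scarce members of MDA-MB-468. miR-4326, in an intron of ARFGAP1, had 183 counts in MDA-MB-468 against 3 in BT474, 15.99 and 0.584 CPM, a log2 ratio of 4.77 (3.20 to 7.06). miR-7975 had 100 and 2 counts (4.49, 2.60 to 7.55). The next places included miR-6510-3p, miR-6806-3p, miR-6795-3p, miR-6820-3p and miR-6853-3p, which share an intron-end position and are described together below. These 5, like miR-4326 and miR-7975, met the count minimum through MDA-MB-468 alone.

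Among the lowest ratios were those of members that lie in introns of protein-coding genes. miR-3609, in an intron of TRRAP, had 2 counts in MDA-MB-468 against 75 in BT474 (log2 -6.39, -9.46 to -4.48). miR-5585-3p, in an intron of TMEM39B, had 4 and 150 counts, 0.349 and 29.2 CPM (-6.39, -8.28 to -5). miR-3173-5p, in an intron of DICER1, the gene of the enzyme that cuts miRNA hairpins, had 4 and 62 counts (-5.11, -7.03 to -3.68). miR-3653-5p, in an intron of AP1B1, had 4 and 59 (-5.04, -6.96 to -3.61). The intervals of these ratios are wide, since 2 to 4 counts stand behind the lower level, but each upper bound stays below a log2 of -3. Each of these members met the count minimum through BT474 alone.

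The mature 3′ end of many members lay at the end of an intron. This class, chosen after the values were seen, holds members whose RefSeq 3′ end is within 2 nt of the last base of an intron of a protein-coding transcript on the same strand (GENCODE 29, GRCh38). It held 49 of the 171 members with a sequence (28.7%) and 6 of 429 lower-numbered miRNAs (1.40%). In 46 of the 49 the mature miRNA ended on the very last intron base and with AG. The introns had a median of 245 nt (79 to 9210), and 18 of them were 150 nt or shorter. Across all members, the hairpin had the shape of a full mirtron, with both ends close to the ends of 1 intron, in 6.

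Members of that class leaned to MDA-MB-468 at low counts, and more than 50% were not called. Of the 49, 22 were called higher in MDA-MB-468 (background 32.9%), while 1 was higher in BT474 (background 28.3%), with a median log2 ratio of 1.07, and 43 ratios were above 0. The other 122 members with a sequence had 37 called higher in MDA-MB-468, while 48 were higher in BT474, with a median of -0.16. These counts follow in part from the minimum: 39 of the 49 reached 10 counts in MDA-MB-468 alone, and among the 10 that reached it in both libraries 2 were called higher in MDA-MB-468 against 1 in BT474, with a median of 0.00. The sum over every intron-end name numbered 3000 and above was also taken, with no minimum, though the class itself was chosen after the values were seen. The 39 members with 10 counts in MDA-MB-468 alone gave 1530 counts of that sum in MDA-MB-468 and 104 in BT474. The 132 such names held 2224 counts in MDA-MB-468 against 356 in BT474, 194 and 69.4 CPM, a log2 ratio of 1.49 (1.32 to 1.65), or 2.80-fold. Without the most abundant member, miR-6510-3p, the log2 ratio of the sum was 1.27, and without the 5 most abundant 1.10. The other 562 names with a sequence summed to 2001 CPM in MDA-MB-468 against 2027 in BT474, a log2 ratio of -0.02 (-0.05 to 0.01).

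The leading intron-end members came from unrelated host genes. miR-6510-3p ends at the last base of a 171 nt intron of KRT15, the gene of a keratin of basal epithelial cells (hairpin at chr17:41517164-41517217, minus strand). It had 354 counts in MDA-MB-468 against 9 in BT474, 30.9 and 1.75 CPM, a log2 ratio of 4.14 (3.20 to 5.28). miR-6806-3p, in ZSCAN22 (chr19:58334688-58334751, plus strand), had 117 and 3 counts (4.13, 2.55 to 6.43). Their levels in CPM differed 17.6-fold and 17.5-fold.

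Further intron-end members had the same direction with lower ratios. Those named before the exceptions met the count minimum through MDA-MB-468 alone. miR-6795-3p, in NOTCH3, the gene of a Notch receptor (chr19:15179283-15179350, minus strand), had 59 and 2 counts (log2 3.73, 1.81 to 6.80). miR-6820-3p, in POLR2F, a gene of an RNA polymerase subunit (chr22:37967563-37967624, plus strand), had 167 and 7 (3.42, 2.34 to 4.76). miR-6853-3p, in CREB3, had 63 and 3 (3.24, 1.62 to 5.55). miR-6775-3p in SLC7A5 and miR-6732-3p in ZC3H12A, an RNase gene of inflammation, were blank in BT474 with 50 and 48 counts in MDA-MB-468. The exceptions included miR-5010-3p, in the proton pump gene ATP6V0A1, with 159 and 39 counts (0.87, 0.36 to 1.41, below 2-fold), miR-7111-3p, in the ribosomal protein gene RPL10A, with 45 and 31 (-0.62), and miR-6833-3p, in RNF5, with 13 and 16 counts (-1.46), the member called higher in BT474.

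The 6 lower-numbered miRNAs with such an end spanned a like range of ratios, with a median log2 of 1.68. miR-877-3p, a known mirtron, had 2295 counts in MDA-MB-468 against 58 in BT474 (log2 4.15, 3.77 to 4.55), and miR-1227-3p 55 counts and a blank. miR-1229-3p was at a log2 ratio of 1.71 and miR-1237-3p at 1.65, the latter not called, whereas miR-1226-3p was at -0.30 and miR-943 at -1.27. Of these 6, 3 were called higher in MDA-MB-468, while 1 was higher in BT474.

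**Figure D4:**
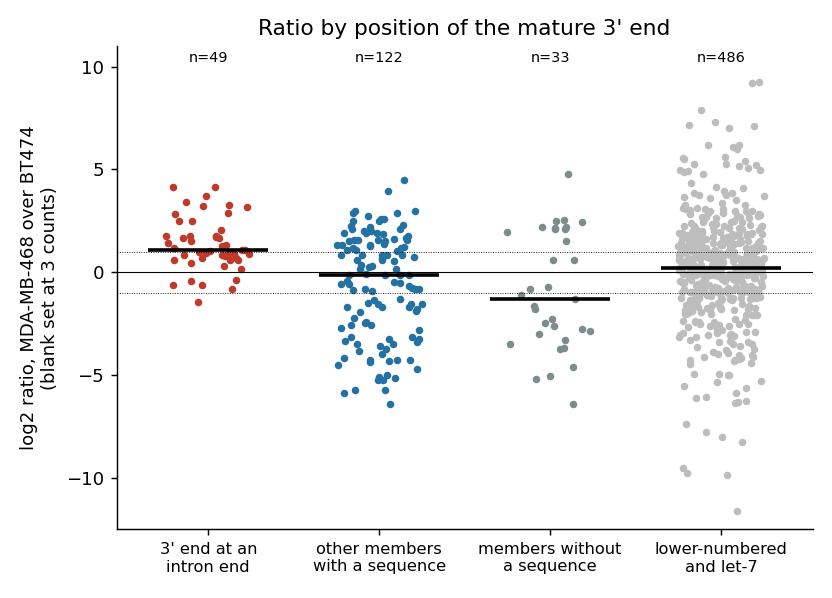
Log2 CPM ratio of MDA-MB-468 over BT474 (y axis) for members with the mature 3′ end at an intron end (49), other members with a sequence (122), members without one (33) and lower-numbered miRNAs (486); each point is 1 miRNA, sideways spread is for legibility, bars are medians and dotted lines mark 2-fold. The first group has 43 of 49 points above 0 and a median of 1.07, the second a median of -0.16.

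Among members with very GC-rich sequences most calls were for BT474, and most of those members met the count minimum through BT474 alone. The median GC content was 56.5% among members and 47.8% among lower-numbered miRNAs. Leaving out the intron-end class, 16 members had a GC content of at least 70%, of which 12 were called higher in BT474 (background 28.3%), 3 higher in MDA-MB-468 (background 32.9%) and 1 neither. The lower-numbered miRNAs showed a like pattern, with 10 of 21 called higher in BT474 and 2 higher in MDA-MB-468. Of the 16 members, only miR-3615, miR-7704 and miR-3187-3p had at least 10 counts in both libraries. Over all members, the 41 with 10 counts in BT474 alone were all called higher in BT474, so these calls follow in part from the minimum. miR-7704, at 84.2% GC, was 3.76-fold higher in BT474, and miR-4497, at 82.4%, had 8 counts in MDA-MB-468 against 68 in BT474 (log2 -4.24, -5.51 to -3.19). miR-4488 (88.9% GC) and miR-4707-5p (87.0%) were blank in MDA-MB-468 with 12 and 15 counts in BT474. On the side of MDA-MB-468 stood miR-3615, at 71.4%, miR-4787-3p with 45 counts against a blank, and miR-4741 with 24 counts against a blank. Because miR-3615 is so abundant, the summed level of all 87 GC-rich names outside the intron-end class was 431 CPM in MDA-MB-468 against 367 CPM in BT474 (log2 0.23, 0.16 to 0.31), which goes against the count of calls. The part of base composition in these ratios was not tested.

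**Figure D5:**
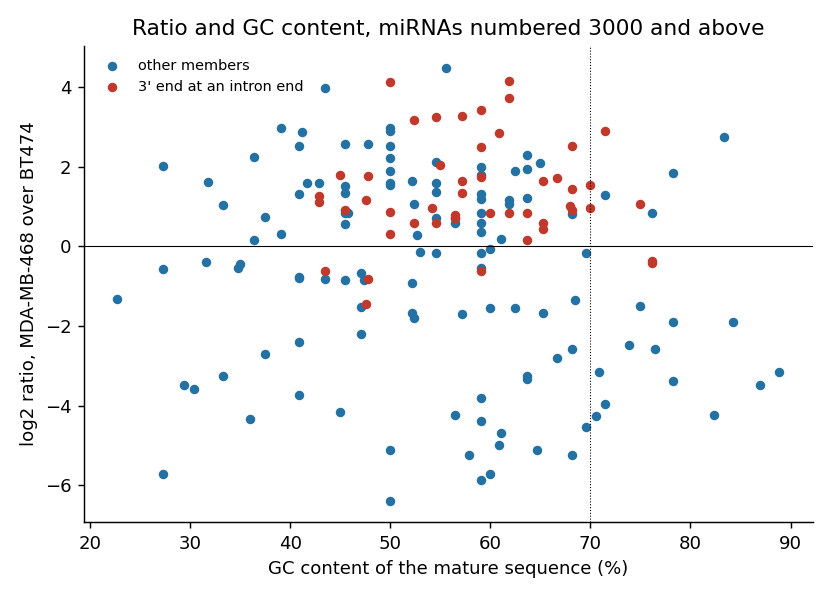
Log2 CPM ratio of MDA-MB-468 over BT474 (y axis) against the GC content of the mature sequence (x axis, %) for the 171 members with a sequence; red points have the 3′ end at an intron end and the dotted line marks 70% GC. To the right of the line 12 of the 16 blue points are called higher in BT474, the highest GC being 88.9% for miR-4488. Most of these 12 met the count minimum through BT474 alone.

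Members that overlap other small RNAs formed the next group, from a list of hairpins known to lie in or beside snoRNA, tRNA, rRNA or mitochondrial sequence. Of its 7 members, 6 were called higher in BT474 (background 28.3%) and 1 higher in MDA-MB-468 (background 32.9%), with a median log2 ratio of -3.48, against 0.58 over all members. That median is the ratio of miR-3653-3p, with 2 counts in MDA-MB-468 against 10 in BT474. Both arms of mir-3653 and miR-3687 had 10 counts or more in BT474 alone, a condition under which every member was called higher in BT474. miR-4485-3p, printed above, is an exact stretch of the mitochondrial 16S ribosomal RNA gene MT-RNR2, and it was 52.6-fold higher in BT474. miR-4461, assigned to mitochondrial sequence in that list, had 105 counts in MDA-MB-468 against 146 in BT474 (log2 -1.63). The ribosomal precursor name miR-3687 had 2 and 12 counts, and the snoRNA names miR-3607-3p and miR-3653-5p had 11 and 36, and 4 and 59. Outside the list, miR-4284 matched the mitochondrial tRNA gene MT-TF exactly and had 2 and 23 counts. Reads from the parent RNA and from the hairpin cannot be told apart by sequence.

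The snoRNA-related names did not all lean to BT474. Both arms of mir-6516, whose sequences lie exactly in SCARNA16, a guide RNA of Cajal bodies, had more counts in MDA-MB-468: miR-6516-3p had 41 against 6 (log2 1.62, 0.37 to 3.14) and miR-6516-5p had 43 against 13 (0.57, -0.35 to 1.59). The 3p arm was called higher in MDA-MB-468 and the 5p arm was not. miR-6516 was matched by sequence and was not on the list.

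The members that end in CACCA were not low in MDA-MB-468. They were 3 of the 171 members with a sequence, against 1 of 429 lower-numbered miRNAs, and were picked out after their values were seen. miR-4454, assigned to tRNA in the list above, had 448 counts in MDA-MB-468 against 47 in BT474, 39.1 and 9.16 CPM (log2 2.10, 1.66 to 2.56), and was the member of that list called higher in MDA-MB-468. miR-7975 shares its last 13 bases with miR-4454 and had 100 and 2 counts (4.49). miR-7977, which shares 6 closing bases with either, had nearly equal levels. Reads that cover only those 13 bases cannot be told apart between the first pair.

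Hairpins antisense to an older miRNA hairpin gave 3 members, which did not follow their partners. miR-3065 is transcribed from the strand opposite mir-338 on chromosome 17, antisense to AATK. miR-3065-5p had 332 counts in MDA-MB-468 against 19 in BT474, 29 and 3.70 CPM (log2 2.97, 2.30 to 3.72), and miR-3065-3p had 40 and 3 (2.58, 0.93 to 4.92). On the other strand, miR-338-5p had 5 and 23 counts (-3.36, -5.11 to -1.93) and miR-338-3p was listed in neither library. The opposite strands of that locus thus had opposite ratios.

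miR-3074-5p, antisense to mir-24-1, showed the reverse arrangement. It had 24 counts in MDA-MB-468 against 35 in BT474 (log2 -1.70), while miR-24-1-5p had 155 and 27 (1.36, 0.77 to 2.01). miR-24-3p, which can also come from a second locus, was at 0.71. miR-3184, antisense to mir-423, was listed in neither library on either arm, although miR-423-5p reached 827 and 1048 CPM.

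Chromosome 17 holds ERBB2, the gene of the receptor HER2, whose amplification in BT474 is well known. A list of miRNAs of that chromosome had 6 members, of which 3 were called higher in MDA-MB-468 (background 32.9%), while 2 were higher in BT474 (background 28.3%). miR-4728-3p, at the 3′ end of a 708 nt intron of ERBB2 (chr17:39726495-39726561, plus strand), had 45 counts in MDA-MB-468 against 10 in BT474, 3.93 and 1.95 CPM. Its log2 ratio of 1.01 (0.00 to 2.17) just reached the call and lost it under 3 other scalings, at 0.81, 0.81 and 0.89. The other arm of the same hairpin, miR-4728-5p, had 7 and 8 counts, 0.612 and 1.56 CPM, a log2 ratio of -1.35, with no call and too few counts to be a member. At these counts the arms had ratios of opposite sign. Its neighbour miR-4726-5p had 11 and 8 counts (-0.70, -2.15 to 0.82).

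Other members on chromosome 17 were mostly higher in MDA-MB-468. Over all 17 members whose hairpin lies there, a set chosen after the values were seen, 11 were called higher in MDA-MB-468 (background 32.9%), while 2 were higher in BT474 (background 28.3%). Those 2 were miR-3614-5p, which overlaps an exon of the ubiquitin ligase gene TRIM25 and was blank against 43 counts, and miR-3064-5p, which overlaps an exon of the RNA helicase gene DDX5, with 7 and 11 counts. Among the 11 were miR-3615, miR-4521, miR-6510-3p, both arms of mir-3065 and miR-4728-3p. These calls follow in part from the count minimum. Of the 11, only miR-3615, miR-4521, miR-3065-5p, miR-6868-3p and miR-4728-3p had at least 10 counts in both libraries. The others of the 11 met the minimum through MDA-MB-468 alone, and miR-3614-5p and miR-3064-5p met it through BT474 alone. Gene copy number was not analysed here.

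Members also differed by number and by arm, beside 32.9% and 28.3% of all miRNAs called in either direction. Of the 64 members in the 6000s, 29 were called higher in MDA-MB-468, while 7 were higher in BT474, with a median log2 ratio of 1.14. Of the 14 in the 5000s, 1 was called higher in MDA-MB-468, while 8 were higher in BT474, with a median of -2.42. These splits follow in part from the count minimum. Among the 29, only miR-6868-3p (110 and 22 counts) had at least 10 counts in both libraries. Among the 8, only miR-5001-3p (16 and 39) and miR-5094 (11 and 26) did. The 3000s (52 members) had 16 and 21, the 4000s (62 members) 20 and 28, and the 7000s (12 members) 4 and 2, so their shares called higher in MDA-MB-468 (30.8%, 32.3% and 33.3%) were near that of all miRNAs. Of the 49 intron-end members, 42 were numbered 6000 or above.

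Members from the 3p arm had higher ratios than those from the 5p arm. Of 117 members on 3p, 47 were called higher in MDA-MB-468, while 26 were higher in BT474, with a median log2 ratio of 0.84, and of 87 on 5p, 23 and 40, with a median of -0.78. These counts depend in part on the minimum, since most of the 47 had 10 counts or more in MDA-MB-468 alone. Arms were not compared among the members with 10 counts in both libraries. Without the intron-end class, the members on 3p with a sequence still had 21 and 16 (median 0.72), and those on 5p 16 and 32 (median -0.66). Among the lower-numbered miRNAs the 3p arm had 83 and 55 of 235, and the 5p arm 74 and 74 of 251, with medians of 0.40 and 0.07.

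Within a hairpin, arm use could be compared for 7 hairpins with both arms listed and at least 20 reads in each library. For mir-3127 the share of 5p reads was 92.0% of 25 reads in MDA-MB-468 (74.0 to 99.02) and 49.3% of 67 reads in BT474 (36.8 to 61.8). For mir-3613 it was 93.8% of 420 reads (91.1 to 95.9) and 98.4% of 447 (96.8 to 99.4). These were the 2 hairpins of the 7 whose intervals did not overlap. The 3p arm of mir-3127 had only 2 reads in MDA-MB-468. The share of such hairpins among the lower-numbered miRNAs was not computed, so these 2 have no background beside them. For mir-3065 the shares were 89.3% and 86.4%, and for mir-3187 11.8% and 5.00%. Another 10 hairpins that met the read minimum had reads on 1 arm alone.

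Shared seeds tied a few members to each other and to older miRNAs. miR-4791 and miR-3201 share the seed GGAUAUG and were both higher in BT474, with 112 and 481 counts, and a blank and 15 counts. miR-3173-5p and miR-6799-3p share GCCCUGC, but the first was higher in BT474 and the second was listed in MDA-MB-468 alone, with 10 counts. miR-6775-3p shares GGCCCUG with miR-1291, whose counts of 5 in MDA-MB-468 against 150 in BT474 ran the opposite way. miR-4665-5p, with 9 and 15 counts, shares UGGGGGA with the far more abundant miR-1275, with 170 and 1306. Among these examples a common seed was found with equal and with opposite directions, and other shared seeds are not described. These directions follow in part from the count minimum. miR-3201, miR-3173-5p, miR-4665-5p and miR-1291 met it through BT474 alone. miR-6775-3p and miR-6799-3p met it through MDA-MB-468 alone, and miR-6799-3p was not called in either direction.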

How the data were processed

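Small RNA (15 to 35 nt) was sequenced in 1 library for each of 2 cell lines. The authors deposited raw counts of tags per mature miRNA and precursor and, per the file headers, a normalized version of the same table, used as a score because its scaling is not described; its columns sum to 988744 and 985422. The submitters' processing notes name Novoalign 2.07.11, while the sources used here do not give the build, miRNA release or counter. A column headed MAD-MB-468 was taken for the MDA-MB-468 library. Rows of predicted candidates (384 of 2121) were left out, and a name on several precursors was taken once with its largest count, which left 1623 names.

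Counts were scaled to CPM of the annotated total (11448022 and 5133057). Every ratio divides MDA-MB-468 by BT474, with exact conditional binomial (Clopper-Pearson) 95% intervals that take a blank as 0 counts and so are one-sided; a blank enters the ratio as 3 counts per library. With 1 library per group no test was possible. Arms are those of the deposited table. Hairpins and introns are from GENCODE 29 and mature sequences from RefSeq GRCh38.p14, matched by name, so no coordinate of the authors was used. Python 3.11.15, numpy 2.4.6, scipy 1.17.1 and pandas 2.3.3 were used, and the calls were checked on simulated data.

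The members, lists and tests were chosen with earlier results of these data known. Named members are the leading 10 of each library by CPM, the 8 top and 8 bottom ratios at 50 counts or more, those blank in one library with 20 counts in the other, the lists, hairpins with both arms, and the 5 names on either side of the minimum. The intron-end, GC, CACCA and chromosome 17 sets and the intron-end examples were chosen after values were seen. Alternatives changed the scaling (total without the 10 most abundant miRNAs, upper quartile, DESeq2's size factors computed by their formula), the blank, the count minimum, the fold, the handling of precursors and the intron-end tolerance.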

Additional observations from a re-analysis of the deposited data

Results flagged for a closer look

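Names numbered 3000 and above that stayed under the minimum of 10 counts entered no comparison of single miRNAs, only the sums of the intron-end and GC-rich names and the alternative with no minimum. They numbered 599, of which 277 were listed in at least 1 library and 322 in neither. Their summed counts were 760 for MDA-MB-468 and 513 for BT474, equal to 0.00664% and 0.00999% of the libraries, above the 3 counts that a total of 0 would allow. Of these names 83 belonged to the intron-end class.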

How the results depend on the processing

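Leaving the 10 most abundant miRNAs out of the total, scaling to the upper quartile or using DESeq2's size factors moved all log2 ratios by -0.21, -0.21 and -0.12. The members called higher in MDA-MB-468 then numbered 60, 60 and 63 and those higher in BT474 71, 71 and 67; 60 of the 70 and 66 of the 66 main calls were kept under all of these, and 43 and 49 also with the authors' normalized values and with a blank at 1 count. The members' median log2 ratio was 0.00 with the normalized values, in which 26 members were blank in both libraries, and reversed to -0.74 with no count minimum and to -0.62 with 10 counts at the depth of the shallower library. Higher in BT474 were 40 members at a minimum of 20 counts and 20 at 50, and higher in MDA-MB-468 27 at 50 counts and 37 when 4-fold was needed. Blank in BT474 were 21 at 20 counts, 4 at 50, 173 with no minimum and 17 at the shallower depth. Blank in MDA-MB-468 were 10, 3, 100 and 19 in the same order. Intron-end members higher in MDA-MB-468 numbered 8 at 50 counts and 12 at 4-fold, and those higher in BT474 0 at 20 or 50 counts or 4-fold, and 2 with no minimum or the normalized values. The share of counts in members was 0.232% and 0.206% when precursors were summed, 0.259% and 0.244% with names on 1 precursor only, 0.237% and 0.221% with predicted candidates in the total, 0.329% and 0.499% without miR-21-5p, 0.253% and 0.238% over all names numbered 3000 and above, and 0.226% and 0.2055% with the normalized values, for MDA-MB-468 and BT474. Of 89 named members, 69 held their call or lack of one under the 3 other scalings, the normalized values and a blank at 1 count, the alternatives run for single members, while 15 lost a call, 5 gained one and none reversed. Fewer members at a higher minimum and shifted ratios follow from the alternatives' construction; other causes were not tested. No paired analysis was possible because each group has 1 library, and for the same reason leaving out a library was not possible. With 1 library per line, differences between lines cannot be told apart from those between cultures, sorts or library preparations. At these depths a member with 10 counts has a wide interval, and 3 counts correspond to 0.262 CPM for MDA-MB-468 but 0.584 for BT474.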
